A study of Mus musculus with 6 samples.

Results

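NFE2L2, usually called NRF2, is the transcription factor that switches on antioxidant and detoxification genes. The genes described here encode it, its relative NFE2L1, the small MAF proteins that pair with both, and the proteins that restrain NRF2. Osgin1 was added as a gene that NRF2 is known to induce, as it also is to induce Mafg, a small MAF gene. The genes are Nfe2l2, Nfe2l1, Mafg, Maff, Mafk, Keap1, Cul3, Bach1 and Osgin1. They were chosen by name for their place in this pathway, with earlier results of these data known. They were found in the expression table by NCBI Gene identifier, and all 9 were among its 16315 genes. The cells were B16F10, a melanoma line from a C57BL/6 mouse that makes pigment, and messenger RNA was measured by sequencing. The treated group was 3 libraries of cells given SAS, a compound known from the labels by these letters only, at a labelled 500 (unit written μm) for 24 h. The vehicle group was 3 libraries of cells given 0.05% DMSO. By its title the study is about blocking xCT, which carries cystine into the cell. Both groups are the same line, and the labels name no genotype or other agent.

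Values are FPKM, the number of sequenced fragments scaled to transcript length and library size, so levels can be set side by side between genes. FPKM sums were 590238 to 617275 per library, and the number of fragments behind them is unknown. The deposited columns are named 24 h for SAS and 0 h for vehicle, so a day in culture and the compound cannot be told apart if 0 h means cells harvested at the outset. All 7 markers of the melanocyte lineage were present, with a summed level of 8730 to 10638 FPKM in SAS libraries and 7414 to 8362 FPKM in vehicle libraries. Taken for each other cell type apart, markers summed to at most 1.41 FPKM in any library. Of those listed, 3 of 7 leukocyte markers gave 1.18 to 1.32 FPKM in SAS and 0.70 to 0.88 FPKM in vehicle, and 4 of 5 fibroblast markers 0.86 to 0.96 FPKM in SAS and 1.16 to 1.41 FPKM in vehicle. Endothelial markers (3 of 4 listed) and keratinocyte markers (2 of 4) stayed at or below 0.05 FPKM in both groups, with Krt5 at 0 throughout. Not every marker moved with its sum: Mlana did not rise with the melanocyte sum, and Col1a1 did not fall with the fibroblast sum. Among leukocyte markers Lyz2 was apart (0.73 to 0.94 FPKM in SAS, 0.45 to 0.48 FPKM in vehicle), while Cd79a and Cd14 overlapped. The part of the shifts in these sums in the results below was not tested. In bulk RNA, fewer cells of a type and less RNA per cell cannot be told apart.

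In resting cells KEAP1 holds NRF2 and, as the adaptor of a ubiquitin ligase built on the scaffold CUL3, sends it to the proteasome. Oxidants and electrophiles modify cysteines of KEAP1, NRF2 then escapes, enters the nucleus, pairs with MAFG, MAFF or MAFK and binds antioxidant response elements. The small MAF proteins lack an activation domain of their own, so pairs of MAF proteins alone repress these elements. BACH1, which also pairs with small MAF proteins, occupies many of the same elements as a repressor and is released and degraded when heme accumulates. Because NRF2 is controlled mainly through protein turnover, the level of its mRNA is a poor guide to its activity.

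In SAS-treated cells, transcripts of Osgin1 and of all 3 small MAF partners were higher, the transcript of the ligase scaffold Cul3 was lower, and those of Nfe2l2, Nfe2l1, Keap1 and Bach1 did not pass the test. The test was limma on log2(FPKM + 1) over 10615 genes, adjusted by Benjamini-Hochberg and read at 0.05, and fold changes are on that log2 scale, where changes of low genes come out too small. By it 4 of the 9 genes rose and 1 fell. Among all genes tested 37.4% changed, 18.9% upward and 18.5% downward. Without SAS replicate 2 only 2 of the 9 rose. Without SAS replicate 3, without vehicle replicate 2 or with no filter on low values 0 of the 9 fell. Fewer of all genes passed in these settings too: 1728 rose without SAS replicate 2, beside 2006 with all libraries. Without SAS replicate 3 or vehicle replicate 2, 1472 and 1334 fell, beside 1963. With no filter 1714 of 15938 genes fell. The 4 genes that rose had SAS libraries entirely above vehicle libraries (24.5% of all genes tested), and Cul3 had them entirely below (24.9%). The median log2 fold change was 0.19 over the 9 genes and -0.01 over all genes tested.

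**Figure D1:**
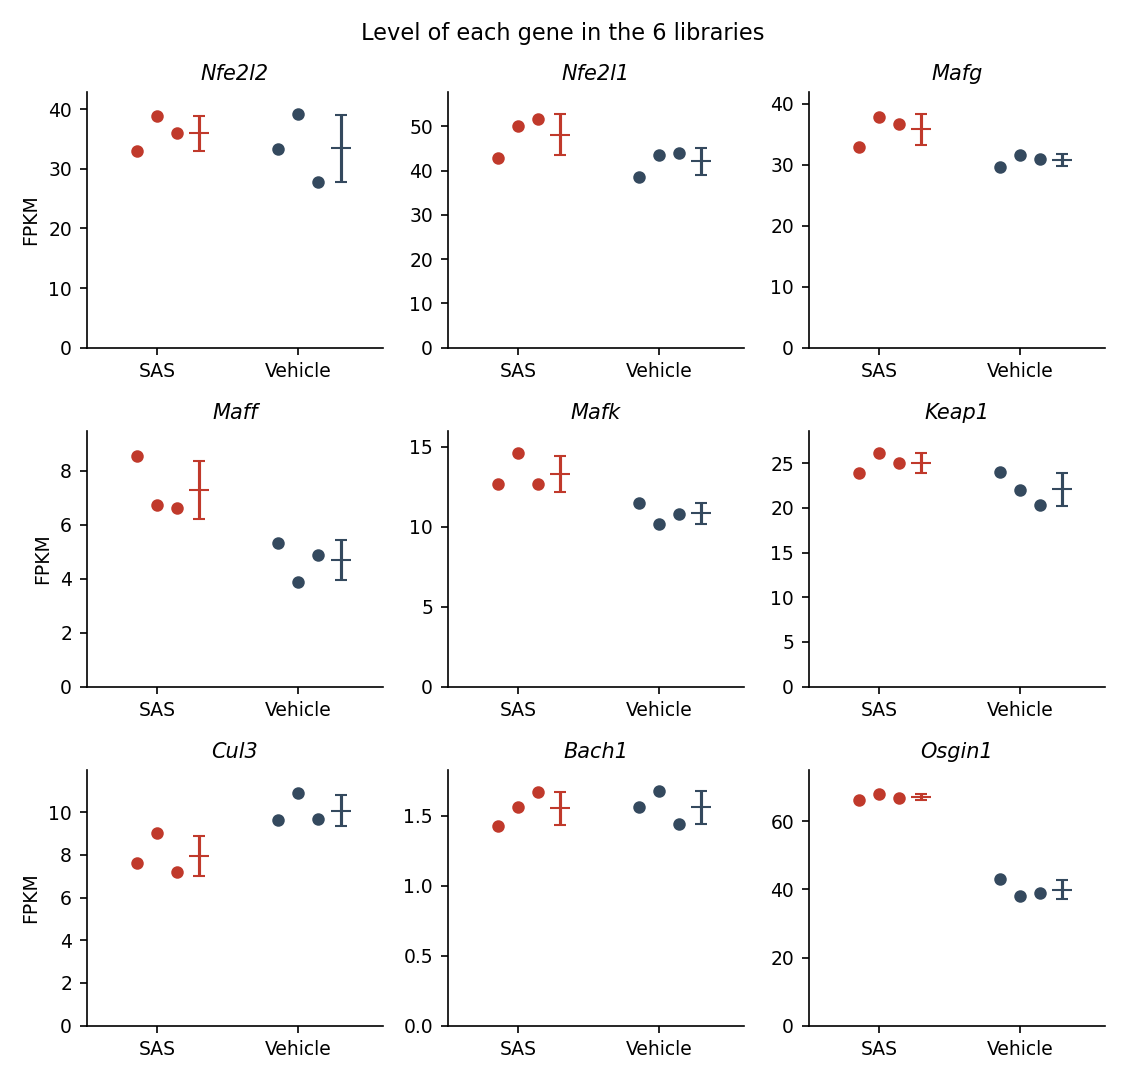
FPKM of each gene (vertical axis, starting at 0) in the 3 SAS libraries (red) and the 3 vehicle libraries (dark), with replicates 1 to 3 from left to right and the group mean and SD beside them. The SAS and vehicle points are fully apart for Mafg, Maff, Mafk, Cul3 and Osgin1 and overlap for the other 4 genes.

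The genes covered a wide range of levels. In SAS-treated cells Osgin1 was the most abundant of the 9, at a mean of 67.0 FPKM, followed by Nfe2l1 (48.2 FPKM), Nfe2l2 (35.9), Mafg (35.8), Keap1 (25.0), Mafk (13.3), Cul3 (7.95), Maff (7.29) and Bach1 (1.55 FPKM). Within this order the library ranges overlapped only between Nfe2l2 and Mafg and between Cul3 and Maff. In vehicle cells Nfe2l1 stood first at a mean of 42.1 FPKM, ahead of Osgin1 (39.9 FPKM), Nfe2l2 (33.4), Mafg (30.8), Keap1 (22.1), Mafk (10.8), Cul3 (10.1), Maff (4.68) and Bach1 (1.56 FPKM). There, neighbours among the first 4 overlapped, as did Mafk and Cul3. Osgin1 lay above 86.3 to 86.6% of the genes tested in SAS libraries and above 78.3 to 80.4% in vehicle libraries. Bach1 lay above 12.8 to 14.8% of them in SAS and above 13.0 to 14.2% in vehicle.

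Nfe2l2 (NCBI Gene 18024), the gene of NRF2 itself, had 32.92, 38.79 and 36.01 FPKM in the SAS libraries, against 33.22, 39.11 and 27.84 FPKM in the vehicle libraries. The groups overlapped: the highest value of all was vehicle replicate 2 and the lowest vehicle replicate 3. Means were 35.9 ± 2.94 FPKM in SAS and 33.4 ± 5.64 FPKM in vehicle (SD, n = 3 each, as for all means here), with a log2 fold change of 0.11 (95% limma interval -0.12 to 0.34, adjusted p = 0.426). The interval leaves room for a rise of about the size seen in Mafg or Mafk. Without vehicle replicate 3 the difference was -0.0086, so that library set its sign. The genes with the most similar course over the 6 libraries, by Euclidean distance between centred log2(FPKM + 1) values among 6878 named genes averaging at least 5 FPKM, were Nop14 (distance 0.14), Kidins220 (0.15) and Kdm2a (0.17).

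Nfe2l1 (NCBI Gene 18023) encodes a related factor that is held in the membrane of the endoplasmic reticulum and, once cleaved, induces proteasome genes. It had 42.88, 50 and 51.57 FPKM in SAS, against 38.65, 43.56 and 43.99 FPKM in vehicle. Only SAS replicate 1 lay within the vehicle range. Means were 48.2 ± 4.63 FPKM in SAS and 42.1 ± 2.97 FPKM in vehicle (log2 fold change 0.19, interval 0.02 to 0.36, adjusted p = 0.0771). Without SAS replicate 1 the log2 fold change was 0.27 and passed the test (adjusted p = 0.0113).

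The partners of both factors rose. Maff (NCBI Gene 17133), the least abundant small MAF gene, had 8.53, 6.73 and 6.62 FPKM in SAS, against 5.31, 3.88 and 4.86 FPKM in vehicle. All SAS values exceeded all vehicle values, with SAS replicate 1 the highest. Means were 7.29 ± 1.07 FPKM in SAS and 4.68 ± 0.731 FPKM in vehicle, a ratio of 1.56 (log2 fold change 0.55, SE 0.11, adjusted p = 0.00298), and 96.7% of the genes tested had a lower log2 fold change. The call held in all 16 alternative settings, with log2 fold changes of 0.44 to 0.63.

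Mafk (NCBI Gene 17135) had 12.64, 14.58 and 12.66 FPKM in SAS, against 11.5, 10.2 and 10.81 FPKM in vehicle. The groups were apart by a narrow margin, with SAS replicate 1 close to vehicle replicate 1. Means were 13.3 ± 1.11 FPKM in SAS and 10.8 ± 0.650 FPKM in vehicle, a ratio of 1.23 (log2 fold change 0.27, SE 0.07, adjusted p = 0.0153). Without SAS replicate 2 or without vehicle replicate 2 the call was lost (adjusted p = 0.0575 and 0.0653).

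Mafg (NCBI Gene 17134), the most abundant small MAF gene and itself a known NRF2 target, had 32.86, 37.87 and 36.61 FPKM in SAS, against 29.64, 31.62 and 31.01 FPKM in vehicle. All SAS values were again higher, the nearest being SAS replicate 1 and vehicle replicate 2. Means were 35.8 ± 2.61 FPKM in SAS and 30.8 ± 1.01 FPKM in vehicle, a ratio of 1.16 (log2 fold change 0.21, SE 0.06, adjusted p = 0.0248). Leaving out SAS replicate 2 or 3 or vehicle replicate 1 ended the call, with adjusted p = 0.0884, 0.072 and 0.1 in that order.

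Summed, the small MAF genes gave 54.03, 59.18 and 55.89 FPKM in SAS, against 46.45, 45.70 and 46.68 FPKM in vehicle. No library of one group reached the range of the other, which had to follow because each of these genes was apart by itself. The vehicle sums lay within 1 FPKM of each other. Mafg supplied 60.8 to 65.5% of the sum in SAS and 63.8 to 69.2% in vehicle, Mafk 22.7 to 24.6% in SAS and 22.3 to 24.8% in vehicle, and Maff 11.4 to 15.8% in SAS and 8.49 to 11.4% in vehicle. These shares overlapped between the groups for each of the genes, so the makeup of the pool was not separated by treatment in these libraries. Small MAF FPKM per unit of Nfe2l2 FPKM was 1.64, 1.53 and 1.55 in SAS and 1.40, 1.17 and 1.68 in vehicle, and here the groups overlapped.

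**Figure D2:**
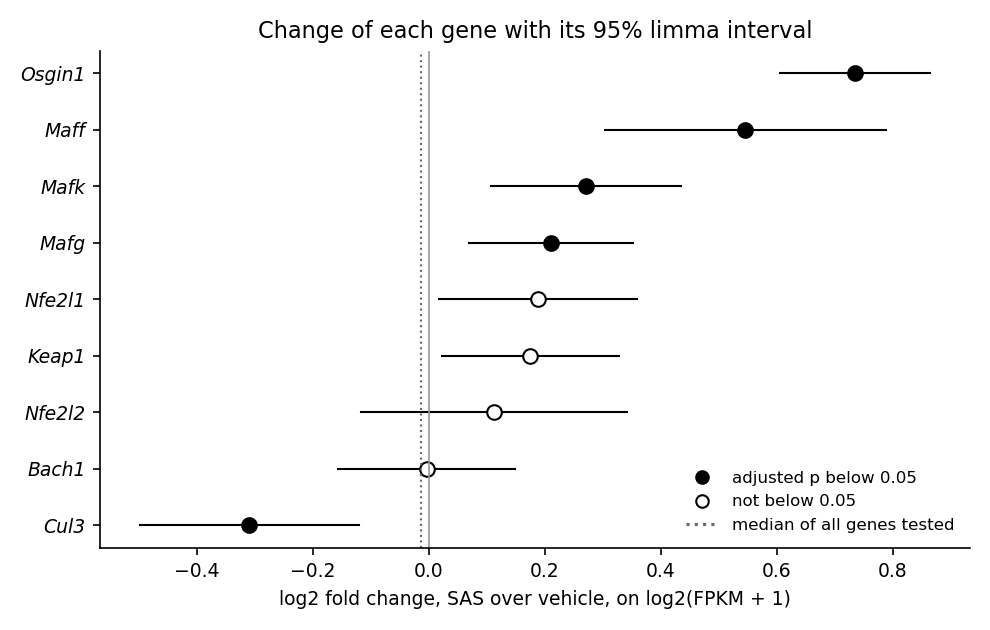
Log2 fold change of SAS over vehicle (horizontal axis, on log2(FPKM + 1)) for each gene, with its 95% limma interval. Filled points passed an adjusted p of 0.05: Osgin1 and the 3 small MAF genes lie right of 0 and Cul3 lies left of it. The dotted line is the median of all genes tested, at -0.01.

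The promoters of the genes were read for the antioxidant response core TGACNNNGC, the element that NRF2 and small MAF pairs bind, and for TGACTCA, an element of the AP-1 type. The windows run from 250 bases before to 50 bases after the start site and come from RefSeq on GRCm38.p6. All 9 genes had at least 1 window, 15 in all, with 5 for Nfe2l1 and 3 for Maff. Searched on both strands, the 9-letter core was found for Nfe2l2 and for each small MAF gene, in 1 window each, and not in the windows of Keap1, Cul3, Bach1, Nfe2l1 or Osgin1. Among all 32851 windows 12.4% hold it, as do 16.8% of the 8604 tested genes that have a window. The stretches are shown because the 3 small MAF genes rose together while Nfe2l2 did not pass the test. They read along the gene's strand and end before the start site, with the match in capitals.
Maff: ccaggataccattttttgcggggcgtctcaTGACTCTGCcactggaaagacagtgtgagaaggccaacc
Mafg: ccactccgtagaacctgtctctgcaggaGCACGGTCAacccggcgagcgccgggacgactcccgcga
Mafk: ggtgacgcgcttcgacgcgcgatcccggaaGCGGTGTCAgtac
Nfe2l2: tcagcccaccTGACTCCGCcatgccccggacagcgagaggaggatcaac
Osgin1: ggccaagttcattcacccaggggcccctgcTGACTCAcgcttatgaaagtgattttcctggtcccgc

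The Maff stretch lies on the plus strand at chr15:79346479-79346547 and its match on the same strand, 104 to 112 bases before the start. The Mafg stretch lies on the minus strand at chr11:120633731-120633797 and the Mafk stretch on the plus strand at chr5:139791493-139791535, and in both the match is on the opposite strand, so that the capitals show its reverse complement. Read along the core, these matches are TGACCGTGC for Mafg, 214 to 222 bases before the start, and TGACACCGC for Mafk, 5 to 13 bases before it. The Nfe2l2 stretch lies on the minus strand at chr2:75704865-75704913, with its match 232 to 240 bases before the start. Osgin1 held the 7-letter element, at 91 to 97 bases before the start in the stretch at chr8:119437020-119437086 on the plus strand. That element is in 5.20% of all windows and was found for no other gene of the 9. Read on the opposite strand, the Osgin1 stretch holds the core but for a G in place of its first C. That form was not searched for, so its share among all windows is unknown. No match of one motif overlapped a match of the other. A match is only a run of letters, and no binding was measured.

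**Figure D3:**
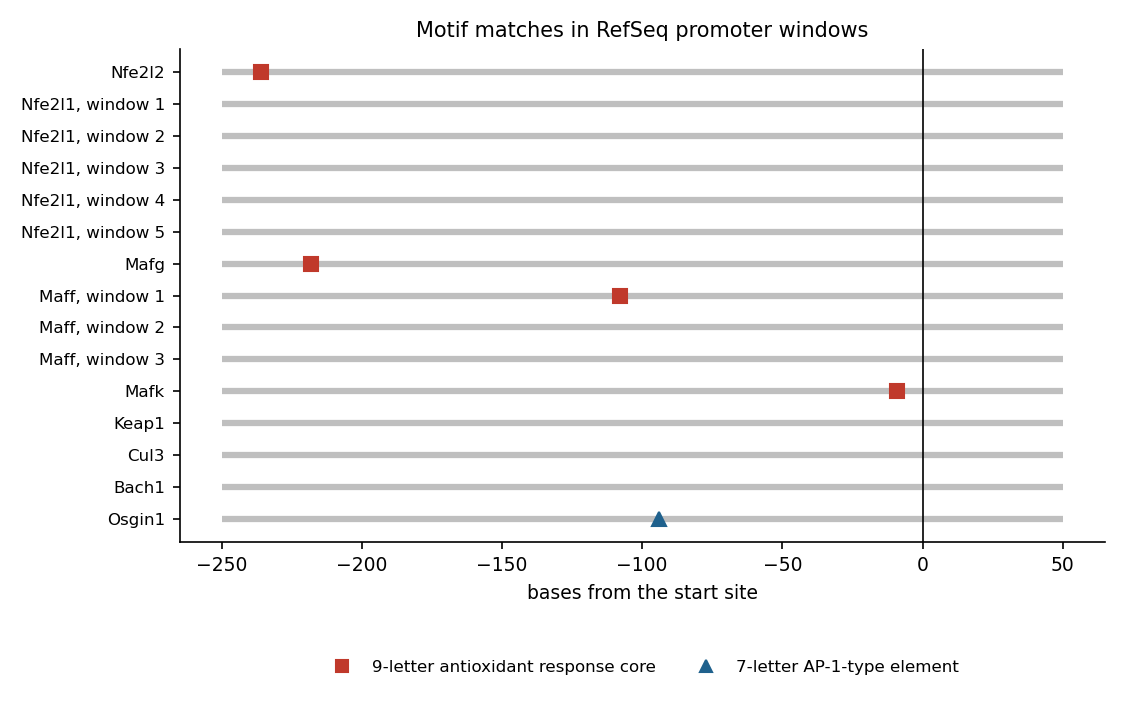
Positions of motif matches (horizontal axis, bases from the start site at 0) in each RefSeq promoter window of the 9 genes (grey bars, 250 bases before to 50 after). Red squares mark the 9-letter antioxidant response core, in 1 window each of Nfe2l2, Mafg, Maff and Mafk; the blue triangle marks the 7-letter AP-1-type element of Osgin1.

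The genes of the ligase that removes NRF2 took different courses. Cul3 (NCBI Gene 26554), the scaffold, had 7.64, 9.02 and 7.18 FPKM in SAS, against 9.61, 10.89 and 9.68 FPKM in vehicle. All SAS values were lower, and in each group replicate 2 was the highest. Means were 7.95 ± 0.958 FPKM in SAS and 10.1 ± 0.720 FPKM in vehicle, a ratio of 0.79 (log2 fold change -0.31, SE 0.09, adjusted p = 0.0159). Leaving out SAS replicate 3 or vehicle replicate 2, or dropping the filter on low values, ended the call, with adjusted p = 0.0622, 0.0698 and 0.0514 in that order.

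Keap1 (NCBI Gene 50868), the oxidant-sensing adaptor, had 23.95, 26.19 and 25.0 FPKM in SAS, against 24.0, 22.01 and 20.31 FPKM in vehicle. The groups touched at SAS replicate 1 and vehicle replicate 1. Means were 25.0 ± 1.12 FPKM in SAS and 22.1 ± 1.85 FPKM in vehicle (log2 fold change 0.17, interval 0.02 to 0.33, adjusted p = 0.0691), and without vehicle replicate 1 the gene passed (log2 fold change 0.23, adjusted p = 0.0419). Cul3 FPKM per unit of Keap1 FPKM was 0.319, 0.344 and 0.287 in SAS, against 0.400, 0.495 and 0.477 in vehicle. The ratio was lower in each SAS library than in any vehicle library. Cul3 by itself was already apart in the same direction, so the ratio is not a separate result. Keap1 FPKM per unit of Nfe2l2 FPKM was 0.727, 0.675 and 0.694 in SAS and 0.722, 0.563 and 0.729 in vehicle, which overlapped.

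**Figure D4:**
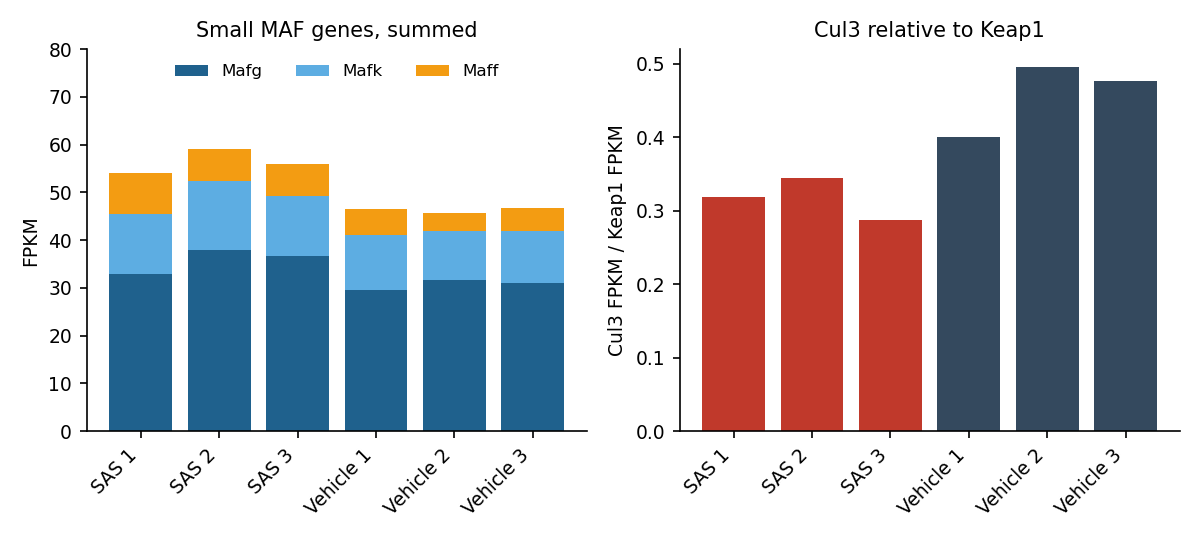
Left, FPKM of Mafg, Mafk and Maff stacked for each library, where the SAS sums of 54.03 to 59.18 FPKM lie above the vehicle sums of 45.70 to 46.68 FPKM. Right, Cul3 FPKM divided by Keap1 FPKM in each library, 0.287 to 0.344 in SAS (red) and 0.400 to 0.495 in vehicle (dark).

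Bach1 (NCBI Gene 12013), the repressor, had 1.43, 1.56 and 1.67 FPKM in SAS, against 1.56, 1.68 and 1.44 FPKM in vehicle. The ranges nearly coincided. Means were 1.55 ± 0.120 FPKM in SAS and 1.56 ± 0.120 FPKM in vehicle (log2 fold change -0.0038, interval -0.16 to 0.15, adjusted p = 0.971). At this low level the added 1 makes differences smaller than they are in FPKM. Nfe2l2 FPKM was 23.0, 24.9 and 21.6 times Bach1 FPKM in the SAS libraries and 21.3, 23.3 and 19.3 times in the vehicle libraries, with overlap.

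Osgin1 (NCBI Gene 71839), oxidative stress induced growth inhibitor 1, a known NRF2-induced gene, changed the most of the 9. It had 66.2, 67.93 and 66.94 FPKM in SAS, against 42.98, 37.94 and 38.88 FPKM in vehicle. The SAS libraries lay closely together and far above vehicle. Means were 67.0 ± 0.868 FPKM in SAS and 39.9 ± 2.68 FPKM in vehicle, a ratio of 1.68 (log2 fold change 0.73, SE 0.06, adjusted p = 9.02e-06). The call held in all 16 alternative settings, with log2 fold changes of 0.70 to 0.79. Of the genes tested, 141 (1.33%), Osgin1 included, had a log2 fold change at least as high. Osgin1 FPKM per unit of Nfe2l2 FPKM was 2.01, 1.75 and 1.86 in SAS, against 1.29, 0.970 and 1.40 in vehicle.

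Within the SAS group, several genes shared their lowest and highest libraries. SAS replicate 1 was the lowest SAS library for 7 of the 9 genes and the highest for Maff, and SAS replicate 2 was the highest for 6. In vehicle no library stood out in this way: each was the lowest for 3 genes, and replicates 1 and 2 were each the highest for 4.

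The listed targets of NRF2 mostly rose. This list and those below were written with earlier results of these data known. Of 36 listed target genes, 35 were in the table, 31 reached a mean of 0.5 FPKM, and of these 24 rose and 1 fell (18.9% and 18.5% of all genes tested), with a median log2 fold change of 0.60. Hmox1, the inducible heme oxygenase, had the largest rise (240.7 ± 6.10 FPKM in SAS and 61.1 ± 4.34 FPKM in vehicle, log2 fold change 1.96), followed by the biliverdin reductase Blvrb (1.58), the quinone reductase Nqo1 (1.50), the glutathione synthesis subunit Gclm (1.31), the sulfiredoxin Srxn1 (1.30) and the microsomal transferase Mgst1 (1.14). Idh1, an NADPH-forming dehydrogenase, fell (14.4 ± 0.397 FPKM in SAS and 17.2 ± 1.10 FPKM in vehicle, log2 fold change -0.23, adjusted p = 0.0154), a call lost without vehicle replicate 2. The 6 that did not pass were Gclc, Txnrd1, Txn1, Tkt, Abcc4 and Cbr1, with log2 fold changes between -0.05 and 0.16. Idh1 and these 6 were named after their values were seen. The 4 under 0.5 FPKM were Abcc2, Abcc3, Aldh3a1 and Trim16, and no expression value of Pir was used here. Of the 26 tested target genes with a promoter window, 9 (34.6%) held the 9-letter core, beside 16.8% of all tested genes with a window. In the lists below this share was 14.3% for BACH1 genes (1 of the 7 with a window, out of 11 listed). It was 10.5% for NRF2 turnover genes and 14.3% for co-regulators. Sequence outside the windows was not searched, so a gene without a match may hold the core elsewhere. For NFE2L1 processing genes and proteasome genes the share was 12.5% and 16.0%. A tie between the core and the rise was not tested.

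Among 11 genes that BACH1 represses or that encode its ligases, 8 rose (72.7%, beside 18.9% of all genes tested) and 0 fell (beside 18.5%) by limma, and 0 fell at an unadjusted p below 0.05 (median log2 fold change 0.50). The share of all genes tested at that unadjusted threshold was not counted, here or for the lists below. The NRF2 list holds 6 of the 11 genes, among them Hmox1, Nqo1, Gclm and the ferritin heavy chain Fth1 (log2 fold change 0.81). Fth1 is a gene with near-identical pseudogene copies. The heme transporter gene Slc48a1 had 238.2 ± 10.1 FPKM in SAS and 136.3 ± 2.75 FPKM in vehicle (log2 fold change 0.80), and the heme synthesis enzyme Fech rose by a log2 fold change of 0.35, both named after their values were seen. Fbxo22 and Fbxl17, which encode ubiquitin ligase subunits that target BACH1, did not pass. Fbxo22 averaged 23.1 ± 0.976 FPKM in SAS and 23.97 ± 2.17 FPKM in vehicle, and Fbxl17 averaged 3.47 ± 0.121 FPKM in SAS and 3.49 ± 0.378 FPKM in vehicle.

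Of 21 genes of NRF2 turnover, all tested, 3 rose (14.3%, beside 18.9% of all genes tested) and 4 fell (19.0%, beside 18.5%), shares near those of all genes, with a median log2 fold change of -0.06. Sqstm1, whose protein p62 draws KEAP1 into autophagy, was abundant and rose (906.8 ± 32.7 FPKM in SAS and 671.8 ± 19.97 FPKM in vehicle, log2 fold change 0.43, adjusted p = 0.000199). Cdkn1a, whose protein p21 binds NRF2, and the membrane ligase gene Syvn1 also rose, by log2 fold changes of 0.58 and 0.27. The call of Syvn1 (adjusted p = 0.0373) was lost in 6 of 16 alternative settings: with no filter on low values and without any 1 library other than SAS replicate 1 (adjusted p up to 0.134). Cul1, the scaffold of a second NRF2 ligase, fell to 12.98 ± 0.255 FPKM in SAS, against 16.6 ± 1.26 FPKM in vehicle (log2 fold change -0.33, adjusted p = 0.00299). Sesn2, a stress-induced sestrin (log2 fold change -0.33), Palb2, a KEAP1-binding repair protein (-0.28), and the kinase gene Gsk3a (-0.23) fell as well. Palb2 was low, at 0.987 ± 0.127 FPKM in SAS and 1.42 ± 0.285 FPKM in vehicle. Its limma call (adjusted p = 0.0301) was lost in 5 of 15 alternative settings (adjusted p up to 0.103). Rbx1, the RING subunit shared by CUL3 and CUL1 ligases, averaged 86.2 ± 7.95 FPKM in SAS and 85.4 ± 2.80 FPKM in vehicle (adjusted p = 0.916). Syvn1, Palb2 and Gsk3a were named after their values were seen.

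Of 9 co-regulators of NRF2 transcription, 0 rose (beside 18.9% of all genes tested) and 3 fell (33.3%, beside 18.5%) by limma, with 0 higher and 4 lower at an unadjusted p below 0.05 (median log2 fold change -0.16). Among those that fell were the nuclear exporter Xpo1 (log2 fold change -0.35, adjusted p = 0.00241) and the retinoid receptor Rxra (-0.21, adjusted p = 0.0363). The count fell to 1 in the leave-out fits without SAS replicate 1, without SAS replicate 3, without vehicle replicate 1 and without vehicle replicate 2. In those fits 1334 to 1807 of all genes tested fell, beside 1963 with all libraries. Other factors of the families were scarce. Of 7 listed, Maf and Mafa were tested and neither passed (0 at an unadjusted p below 0.05, limma). Maf averaged 2.36 ± 0.217 FPKM in SAS and 2.33 ± 0.221 FPKM in vehicle. Mafa averaged 0.937 ± 0.298 FPKM in SAS and 1.03 ± 0.260 FPKM in vehicle. Nfe2, Nfe2l3, Bach2 and Nrl stayed at or below 0.39 FPKM in every library.

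Of 8 genes that process NFE2L1, 3 rose (37.5%, beside 18.9% of all genes tested) and 0 fell (beside 18.5%) by limma, with 3 higher and 1 lower at an unadjusted p below 0.05 (median log2 fold change 0.06). The members that rose act at the endoplasmic reticulum: the extracting ATPase Vcp (181.3 ± 7.71 FPKM in SAS and 149.4 ± 13.7 FPKM in vehicle, log2 fold change 0.28), the ligase adaptor Sel1l (0.29) and Syvn1. Where Syvn1 lost its call, as given above, 2 of the 8 rose. The protease gene Ddi2, which cleaves NFE2L1, averaged 7.38 ± 0.673 FPKM in SAS and 6.77 ± 0.280 FPKM in vehicle (adjusted p = 0.284). The deglycosylase gene Ngly1 averaged 1.13 ± 0.193 FPKM in SAS and 1.11 ± 0.0551 FPKM in vehicle (adjusted p = 0.947).

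Of 31 proteasome subunit genes, which NFE2L1 induces, 6 rose (19.4%, against 18.9% of all genes tested) and 0 fell (beside 18.5%) by limma. At an unadjusted p below 0.05, 8 of the 31 were higher and 2 lower, with no share of all genes counted there. The median log2 fold change of the list was 0.08. Among the 6 that rose, the largest change was that of Psmb4 (log2 fold change 0.23), then Psmd1 (0.19), Psmd2 (0.18) and Psmc2 (0.16). Leaving out any 1 of the 6 libraries reduced the count to between 1 and 3. In those fits 1500 to 1950 of all genes tested rose, beside 2006 with all libraries.

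**Figure D5:**
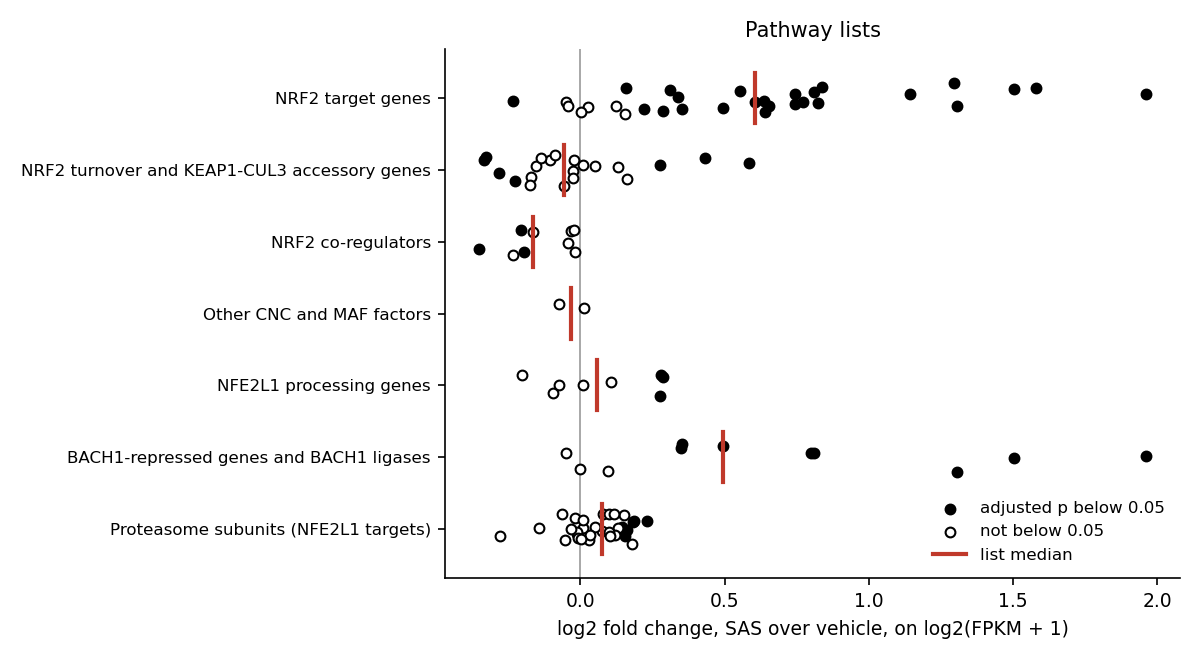
Log2 fold change of SAS over vehicle (horizontal axis, on log2(FPKM + 1)) of every tested gene in each pathway list, scattered vertically for visibility. Filled points passed an adjusted p of 0.05 and red bars are list medians, from 0.60 for NRF2 targets to -0.16 for co-regulators. Genes shared by several lists appear in each.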

How the data were processed

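Total RNA of the 6 samples was made into BGISEQ-500 libraries, per the labels' protocols. Deposited values are FPKM, computed by the authors and named so per the file headers. FastQC, HISAT and Bowtie2 are named without role or version, per the submitters' processing notes. Not given in the sources used here are the quantifier, the genome build, the annotation and the use of strand. Columns marked 24 h were assigned to SAS, whose label gives that time, and the 0 h columns to vehicle by elimination. Nothing says that replicates were separate cultures, so p-values measure the spread between libraries, which may be technical.

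Gene symbols came from RefSeq GRCm38.p6 (16206 of 16315 identifiers). The fit was made on log2(FPKM + 1) with limma 3.58.1 and its intensity trend (R 4.3.3), 2-sided, for genes averaging at least 0.5 FPKM, and was tested on simulated data. No count test was run, since fragment numbers are unknown. The 9 genes and the pathway lists were chosen with earlier results of these data known. Text names all 9, up to 4 called genes a list by absolute log2 fold change (6 for NRF2 targets), Sqstm1, Rbx1, Fbxo22, Fbxl17, Ddi2 and Ngly1, and the 3 genes most like Nfe2l2; 1 gene that this rule takes is not reported here. Promoters and figures used Python 3.11.15, pandas 2.3.3 and matplotlib 3.10.9. Alternatives were other pseudocounts (0.1, 0.5), filters and scalings, a replicate block, no trend, robust estimation, and each library left out.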

Additional observations from a re-analysis of the deposited data

How the results depend on the processing

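Over 16 alternative settings, Osgin1 and Maff kept their direction and call, and no called gene of the 9 reversed. Leaving out 1 library in turn gave log2 fold changes of 0.17 to 0.27 for Mafg, 0.21 to 0.31 for Mafk, -0.39 to -0.25 for Cul3, 0.12 to 0.23 for Keap1, 0.13 to 0.27 for Nfe2l1, -0.0086 to 0.23 for Nfe2l2 and -0.038 to 0.031 for Bach1. Bach1 also turned positive with size factors (0.0032) and with quantile normalization (0.0016), all far from the threshold. With no filter on low values Cul3 kept its log2 fold change of -0.31 but not its call. Counts under leave-out fits ran from 2 to 5 rises and 0 to 1 falls among the 9 genes, 0 to 1 falls of NRF2 targets, 1 to 4 falls of co-regulators, 0 to 1 falls of NFE2L1 processing genes, and 1 to 3 rises and 0 to 1 falls of proteasome genes. Over all genes tested the leave-out fits gave 1500 to 1950 rises and 1334 to 1899 falls, beside 2006 and 1963 with all libraries. With no filter, 0 of the 9 genes and 1 co-regulator fell and 2 proteasome genes rose. That setting gave 1891 rises and 1714 falls among 15938 genes. Without the trend 2 proteasome genes rose, and after rescaling libraries to a common sum 1 co-regulator and 1 proteasome gene fell. The cause was not tested.

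Whether the replicate numbers pair the libraries cannot be settled with 3 libraries a group. Correlations of same-numbered deviations from group means were -0.08, 0.15 and 0.23. The largest of all, 0.35, was between SAS replicate 2 and vehicle replicate 1, which differ in number. Of the SAS libraries, only replicate 3 correlated best with its own number. With a replicate block 2187 genes rose and 2158 fell by limma, beside 2006 and 1963 without it. With the replicate block Nfe2l1 passed (log2 fold change 0.19, adjusted p = 0.0181), and 1 NFE2L1 processing gene fell. FPKM without fragment numbers gives no counting error. Sums and ratios of the 9 genes are given as values, with no test. Scalings moved the median of all genes to at most -0.02.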
